A study of Mus musculus with 7 samples.

Results

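The genes described are 6 ligands of the TGF-β superfamily (*Tgfb1*, *Tgfb2*, *Tgfb3*, *Mstn*, *Inhba* and *Bmp4*), 2 secreted antagonists (*Fst* and *Fstl1*) and 2 inhibitory SMADs (*Smad6* and *Smad7*). They were chosen by name, through the Ensembl identifier of each symbol, and all 10 were found among the 56748 genes listed in the count files. Ligands of this superfamily are secreted dimers that bring together type I and type II receptor kinases on the cell surface. The receptors phosphorylate SMAD proteins, which enter the nucleus with SMAD4 and change transcription. TGF-β and activin-type ligands act mainly through SMAD2 and SMAD3, and BMPs through SMAD1, SMAD5 and SMAD9. In skeletal muscle, myostatin, the product of *Mstn*, is best known as a negative regulator of muscle mass, and follistatin, the product of *Fst*, binds activins and myostatin and keeps them from their receptors.

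RNA was measured in muscle stem cells (MuSCs) of adult mouse hind limb muscle, from 3 WT samples and 4 samples homozygous for *Jag2sm*. JAG2 is a ligand of NOTCH receptors. The *Jag2sm* allele is described in the study's methods and text as a naturally occurring hypomorphic missense variant in the extracellular domain, whereas the sample labels give the genotype of these samples as Jag2-/-. The allele is carried by the whole animal and not by MuSCs alone. Cells were sorted magnetically as CD31-, CD45-, Sca1- and Integrin α7+, and no treatment was given to either group. The study's general culture methods keep such cells in growth medium with FBS and bFGF. Its sequencing methods do not say whether, or for how long, the sequenced cells were cultured. Nothing in the sources used here says that replicates came from separate animals, so the p-values measure the spread between these samples, which may be technical. Each sample became 1 direct cDNA library read on a Nanopore sequencer.

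Gene counts summed to 187834 in the shallowest library, WT replicate 1, and to 1937581 in the deepest. Aligned reads outside any gene made up 45.1% in WT replicate 1 and 20.8% to 25.7% elsewhere. Unaligned reads made up 46.0% to 50.8% of *Jag2sm* replicates 1, 2 and 4, but 2.44% to 3.24% of the remaining 4 libraries. Values are given as CPM, counts scaled to a common normalized library size. In WT replicate 1 a single count was worth 5.76 CPM, and in the other libraries 0.493 to 1.41 CPM, so values of a few CPM rest on a few reads. *Jag2* itself stood at 80.7, 114 and 116 CPM in WT and at 42.4, 78.8, 71.9 and 77.4 CPM in *Jag2sm* replicates 1 to 4. The *Jag2* levels did not overlap, and its log2 fold change of -0.64 ± 0.24 (SE) had an edgeR adjusted p of 0.166. A missense allele need not lower its own RNA, so this level does not check the labels. The MuSC label was checked against markers: *Pax7*, *Myf5* and *Myod1* were counted in both genotypes, and *Lum*, *Dpt*, *Kdr*, *Tie1*, *Ptprc* and *Adgre1*, which mark fibro-adipogenic, endothelial and immune cells, were at 0 counts in all 7 libraries. Other markers of those cells were counted: *Pecam1* had 2 reads in WT and 16 in *Jag2sm*, *Pdgfra* 1 and 7, *Ly6a* 6 and 43, *Gsn* 175 and 611 and *Cd68* 5 and 11, and all of these had higher mean CPM in *Jag2sm*. *Cd34*, *Smoc2*, *Clec3b*, *Cdh5*, *Emcn*, *Egfl7*, *Csf1r* and *Cd74* also had higher mean CPM in *Jag2sm*. Markers with lower mean CPM in *Jag2sm* were *Itgam* (6 reads in WT and 0 in *Jag2sm*), *Flt1* (2 and 0) and *Pi16* (3 and 1). *Tek* (5.01 CPM in WT and 3.00 in *Jag2sm*) and *Col15a1* (6.95 and 4.48) were lower as well. Of all these, *Gsn* and *Cd34* alone were tested, and neither was called. Of the MuSC markers, *Msc* had 0 counts in all 7 libraries and *Calcr* had 1 read.

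The following stretches of regulatory sequence are shown because the ligand genes *Mstn* and *Tgfb2* were both lower in *Jag2sm* MuSCs and their upstream sequences differ in a motif of muscle transcription factors. MYOD and myogenin bind the E-box, spelled CANNTG, which reads as the same pattern on both strands. Each line gives the 250 bases upstream of the annotated transcription start in GRCm39, 5′ to 3′ on the strand of the gene, with E-boxes in capitals. The *Mstn* stretch is chr1:53100549-53100798 on the + strand and the *Tgfb2* stretch is chr1:186438295-186438544 on the - strand.
Mstn: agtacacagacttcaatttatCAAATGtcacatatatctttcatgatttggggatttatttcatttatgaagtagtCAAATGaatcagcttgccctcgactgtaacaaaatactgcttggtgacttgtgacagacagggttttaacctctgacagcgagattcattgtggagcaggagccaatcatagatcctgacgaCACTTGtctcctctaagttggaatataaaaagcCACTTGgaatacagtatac
Tgfb2: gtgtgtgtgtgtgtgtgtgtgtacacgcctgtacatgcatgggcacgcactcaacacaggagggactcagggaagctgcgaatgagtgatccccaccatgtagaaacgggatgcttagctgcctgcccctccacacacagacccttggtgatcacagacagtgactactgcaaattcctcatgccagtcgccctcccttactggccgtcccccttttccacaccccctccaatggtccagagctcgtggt

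The *Mstn* stretch held 4 E-boxes, CAAATG at 229 and 174 bases and CACTTG at 52 and 19 bases upstream of the start, and a TATA box (TATAAA, searched on the strand of the gene). The *Tgfb2* stretch held 0 E-boxes and no TATA box. Each stretch held 2 copies of the SMAD element (CAGAC, or GTCTG for the other strand), and no E-box in the *Mstn* stretch overlapped a SMAD element or the TATA box. Neither held the RBPJ element (TGGGAA, or TTCCCA for the other strand), the core bound by the DNA-binding partner of NOTCH. Among 21770 promoters of the same length, 64.8% held an E-box, 41.3% a SMAD element, 22.7% an RBPJ element and 8.03% a TATA box. In the same window *Tgfb3* held 1 E-box, at 133 bases upstream, where the window overlaps an annotated exon of *Tgfb3*. *Bmp4* held 3, *Fstl1* 2, *Inhba* 1, and *Tgfb1*, *Fst* and *Smad6* 0, so genes with and without an E-box were found among those called and those not called. These are matches of letters and say nothing about binding in these cells.

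Of the 10 genes, 9 passed the filter on low counts, which required 8.17 CPM in at least 3 libraries before normalization, and *Bmp4* did not. *Mstn*, *Tgfb3* and *Tgfb2* were lower in *Jag2sm* MuSCs at an edgeR adjusted p under 0.05, and 0 of the 9 were higher. Over all 9489 genes tested, 6.26% passed that threshold, 4.84% as lower and 1.42% as higher. The libraries of the genotypes did not overlap for 4 of the genes that were lower in *Jag2sm* (*Mstn*, *Tgfb3*, *Tgfb2* and *Fst*) and for 2 that were higher (*Fstl1* and *Smad7*). Over all genes tested, 22.5% did not overlap, 12.2% as lower and 10.3% as higher. The median log2 fold change of the 9 genes was -0.73, with a range of -3.37 to 0.97, beside a median of 0.05 over all genes tested. *Mstn* passed the filter in all 3 WT libraries and in 1 *Jag2sm* library, and *Tgfb2* in 3 and 2, so both passed through their WT libraries, and these counts are a description of the genes and no support for a shift.

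**Figure D1:**
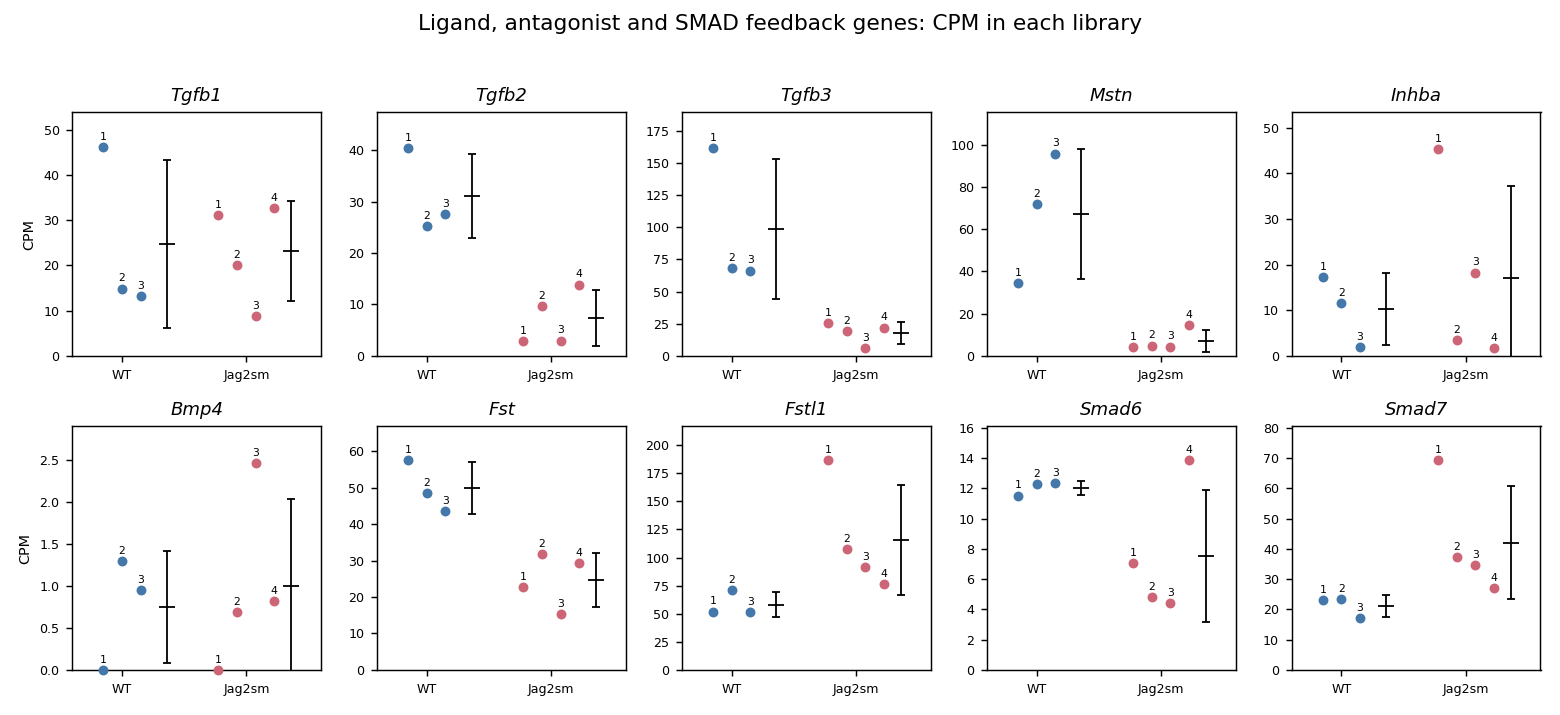
CPM of the 10 genes in each library, with 1 panel per gene, its own linear axis from 0, and the replicate number beside each point. The dash and bars are the mean and SD of 3 WT and 4 Jag2sm libraries (lower bars of *Inhba* and *Bmp4* are cut at 0); the points of *Mstn*, *Tgfb3*, *Tgfb2* and *Fst* are all lower in Jag2sm, and those of *Fstl1* and *Smad7* all higher.

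*Mstn* encodes myostatin and lies at chr1:53100799-53107240 in GRCm39, where it overlaps no other annotated gene. It stood at 34.6, 71.7 and 95.8 CPM in WT replicates 1 to 3 (6, 111 and 101 reads). In *Jag2sm* replicates 1 to 4 it stood at 4.24, 4.84, 4.43 and 14.7 CPM (3, 7, 9 and 18 reads). Every *Jag2sm* library was below every WT library, and *Jag2sm* replicate 4 was apart from the other 3. The means were 67.4 ± 30.8 CPM (SD, n = 3) and 7.05 ± 5.09 CPM (SD, n = 4). The fitted level was 10.3-fold lower in *Jag2sm*, a log2 fold change of -3.37 ± 0.44 (SE) with an edgeR adjusted p of 0.00311. The two-sided exact permutation test over the 35 ways to divide 7 libraries into 3 and 4 gave p = 0.0286, the smallest it can give. The 3 batches that hold both genotypes are pairs of equal replicate number and may share nothing but that number. Within them the log2 differences were -2.61, -3.49 and -3.99. Without *Jag2sm* replicate 4 the log2 fold change was -3.97, and with batch as a block it was -3.98.

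*Tgfb3* encodes a TGF-β isoform and lies at chr12:86102756-86126301, with *Ttll5*, *Gm37804* and *Gm48008* annotated over it on the opposite strand. The strand setting of the counting is not given in the sources used here, so reads of these genes may not be told apart. Its level was 161, 68.5 and 66.4 CPM in WT replicates 1 to 3. In *Jag2sm* replicates 1 to 4 it was 25.5, 19.3, 5.91 and 22.0 CPM. The highest WT value came from the library with the fewest reads, where it rests on 28 reads, and the lowest *Jag2sm* value rests on 12. The means were 98.8 ± 54.3 CPM (SD, n = 3) and 18.2 ± 8.55 CPM (SD, n = 4). The fitted level was 5.10-fold lower, with a log2 fold change of -2.35 ± 0.46 (SE), an edgeR adjusted p of 0.0143 and an exact permutation p of 0.0286. Within batches 1, 2 and 3 the log2 differences were -2.59, -1.74 and -3.16. The adjusted p stayed under 0.05 with each library left out in turn, and was highest, at 0.0499, without *Jag2sm* replicate 2. With *Jag2sm* replicate 3 as the only mutant library, the log2 fold change was -3.84.

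*Tgfb2* encodes a further isoform and lies at chr1:186354985-186438294, with *Gm29491* on the opposite strand. It was at 40.4, 25.2 and 27.5 CPM in WT replicates 1 to 3 and at 2.83, 9.67, 2.96 and 13.9 CPM in *Jag2sm* replicates 1 to 4. These values rest on 7 to 39 reads in WT and on 2 to 17 reads in *Jag2sm*. The means were 31.0 ± 8.16 CPM (SD, n = 3) and 7.33 ± 5.40 CPM (SD, n = 4), and the groups did not overlap. The fitted level was 3.81-fold lower, with a log2 fold change of -1.93 ± 0.49 (SE) and an edgeR adjusted p of 0.0431. The exact permutation test on log2 CPM gave p = 0.0571. This call was the least steady of the 3: leaving out WT replicate 1, 2 or 3 gave edgeR adjusted p-values of 0.0790, 0.117 and 0.140, and leaving out *Jag2sm* replicate 1, 2 or 3 gave 0.0801, 0.0852 and 0.0553. Its log2 fold change stayed between -2.10 and -1.55 in these fits. Without *Jag2sm* replicate 4 the call was kept, with -2.39 and an adjusted p of 0.0195. Scaling by library size alone gave an adjusted p of 0.0536. Within batches the log2 differences were -3.21, -1.24 and -2.65.

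*Tgfb1*, the isoform most studied in fibrosis, lies at chr7:25386390-25404506 and overlaps no other gene. It was at 46.1, 14.9 and 13.3 CPM in WT replicates 1 to 3 and at 31.1, 20.0, 8.87 and 32.6 CPM in *Jag2sm* replicates 1 to 4. The groups overlapped. The log2 fold change was 0.28 ± 0.53 (SE), with an edgeR adjusted p of 0.828, and its sign turned when WT replicate 3 was left out (-0.037), when batch was a block (-0.16) and when *Jag2sm* replicate 3 was the only mutant library (-0.96). No direction can be given for this gene.

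The share of each isoform among the reads of the 3 TGF-β genes does not depend on how libraries are scaled. This measure was chosen after the values were seen and is given without a test. *Tgfb1* made up 18.6%, 13.7% and 12.4% of these reads in WT replicates 1 to 3, and 52.4%, 40.8%, 50.0% and 47.6% in *Jag2sm* replicates 1 to 4. *Tgfb3* made up 61.9% to 65.1% in WT and 32.1% to 42.9% in *Jag2sm*. *Tgfb2* overlapped, with 16.3% to 25.7% in WT and 4.76% to 20.2% in *Jag2sm*. The shares rest on 43, 168 and 113 reads in WT and on 42, 71, 36 and 84 in *Jag2sm*. For *Tgfb1* the 95% Clopper-Pearson interval in WT replicate 1, the shallowest library, was 8.39% to 33.4%, which overlapped that of *Jag2sm* replicate 2, at 29.3% to 53.2%, and that of *Jag2sm* replicate 3, at 32.9% to 67.1%. For *Tgfb3* the interval of *Jag2sm* replicate 1, 27.7% to 59.0%, overlapped those of all 3 WT libraries. That of WT replicate 1, 49.1% to 79.0%, also overlapped those of *Jag2sm* replicates 2 and 3. The intervals cover counting error only. The shares of the 3 genes depend on each other. *Tgfb1* had mean levels of 24.8 CPM in WT and 23.2 CPM in *Jag2sm*, whereas *Tgfb3* and *Tgfb2* were lower in *Jag2sm*.

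**Figure D2:**
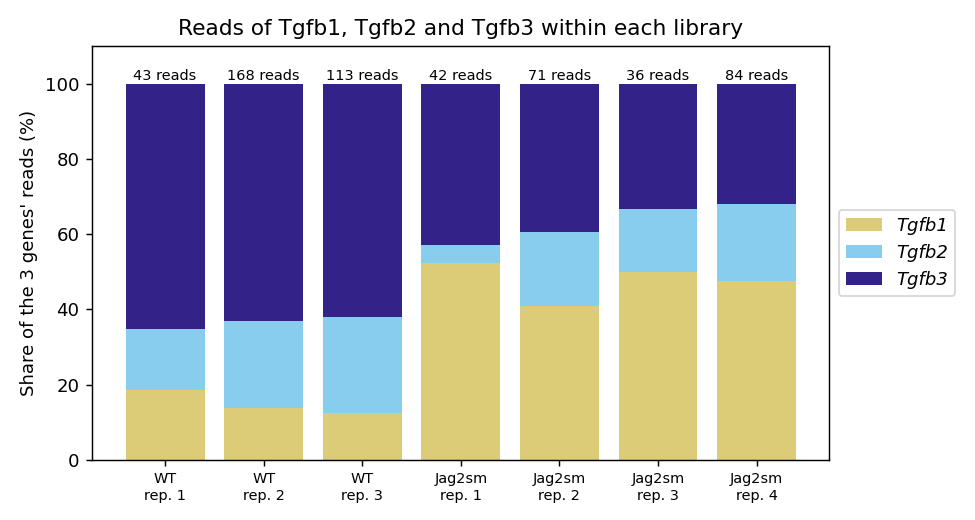
Share (%) of *Tgfb1*, *Tgfb2* and *Tgfb3* among the reads of these 3 genes, with 1 stacked bar per library and the number of reads above it. *Tgfb1* takes 12.4% to 18.6% in WT and 40.8% to 52.4% in Jag2sm, and *Tgfb3* takes 61.9% to 65.1% in WT and 32.1% to 42.9% in Jag2sm.

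*Inhba* and *Bmp4* gave no measurable difference. *Inhba*, which encodes the βA subunit of activins, lies at chr13:16186373-16206206, with *4933412O06Rik* on the opposite strand. It was at 17.3, 11.6 and 1.90 CPM in WT and at 45.2, 3.46, 18.2 and 1.63 CPM in *Jag2sm* replicates 1 to 4. Its log2 fold change was 0.89 ± 1.00 (SE), with an edgeR adjusted p of 0.684, and ran from 0.059 without *Jag2sm* replicate 1 to 1.69 without WT replicate 2. The libraries of each genotype spread more widely than the genotypes differed. *Bmp4*, a BMP ligand at chr14:46620250-46636745 with *Gm15217* and *Gm15222* on the opposite strand, had 3 reads in all WT libraries and 7 in all *Jag2sm* libraries. The log2 ratio of its pooled levels was 0.26 with an exact 95% interval of -1.87 to 2.84, so a difference in either direction was not detectable at this depth.

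*Fst* encodes follistatin and lies at chr13:114588731-114595521, with *Gm47040* and an unnamed gene on the opposite strand. It was at 57.6, 48.5 and 43.6 CPM in WT replicates 1 to 3 and at 22.6, 31.8, 15.3 and 29.3 CPM in *Jag2sm* replicates 1 to 4. All *Jag2sm* values were below all WT values. The means were 49.9 ± 7.12 CPM (SD, n = 3) and 24.8 ± 7.41 CPM (SD, n = 4). The log2 fold change of -0.97 ± 0.29 (SE) had an edgeR adjusted p of 0.0806, above the threshold, and the exact permutation p was 0.0286. Over all alternatives the adjusted p lay between 0.0509 and 0.228.

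*Fstl1*, a secreted glycoprotein related to follistatin, lies at chr16:37597105-37656876 and overlaps no other gene. It was at 51.9, 71.1 and 51.2 CPM in WT replicates 1 to 3 and at 187, 108, 91.7 and 76.6 CPM in *Jag2sm* replicates 1 to 4. The lowest *Jag2sm* value was close to the highest WT value, and *Jag2sm* replicate 1 was the highest. Its log2 fold change was 0.93 ± 0.32 (SE), with an edgeR adjusted p of 0.127 and an exact permutation p of 0.0571. Without *Jag2sm* replicate 1 the log2 fold change was 0.63.

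Reads of *Mstn* were also set beside those of *Fst* and of *Fstl1* within each library, again as a description chosen after the values were seen. The number of *Mstn* reads per *Fst* read was 0.600, 1.48 and 2.20 in WT and 0.188, 0.152 and 0.290 in *Jag2sm* replicates 1 to 3, and *Jag2sm* replicate 4 had 18 *Mstn* reads to 36 *Fst* reads. Per *Fstl1* read it was 0.667, 1.01 and 1.87 in WT and 0.0227, 0.0449, 0.0484 and 0.191 in *Jag2sm*. Neither ratio overlapped between genotypes, and in both *Jag2sm* replicate 4 was the *Jag2sm* library nearest to WT. In WT replicate 1 the ratios rest on 6 *Mstn*, 10 *Fst* and 9 *Fstl1* reads. Per *Fst* read, *Jag2sm* replicate 4 lay only just below WT replicate 1. Counting error was not estimated for these ratios, so that gap may not exceed it. *Mstn* was itself lower in *Jag2sm*, and how often ratios of other gene pairs fail to overlap was not tested.

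*Smad6* and *Smad7* encode the inhibitory SMADs, which SMAD signaling itself induces and which block the receptors or their SMADs. *Smad7*, at chr18:75500374-75529006 with no overlapping gene, was at 23.1, 23.3 and 17.1 CPM in WT and at 69.3, 37.3, 34.5 and 26.9 CPM in *Jag2sm* replicates 1 to 4. All *Jag2sm* values lay above all WT values, with *Jag2sm* replicate 1 the highest. The value of WT replicate 1 rests on 4 reads, each worth 5.76 CPM. Its gap to *Jag2sm* replicate 4, at 33 reads, was smaller than 1 such read, so the lack of overlap is not firm. The log2 fold change of 0.97 ± 0.36 (SE) had an edgeR adjusted p of 0.161 and an exact permutation p of 0.0571. Without *Jag2sm* replicate 1 it was 0.68. *Smad6*, at chr9:63860341-63929793 with no overlapping gene, was at 11.5, 12.3 and 12.3 CPM in WT and at 7.07, 4.84, 4.43 and 13.9 CPM in *Jag2sm*. *Jag2sm* replicate 4 was above every WT library and the other 3 were below. Its log2 fold change was -0.73 ± 0.47 (SE), with an edgeR adjusted p of 0.426.

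**Figure D3:**
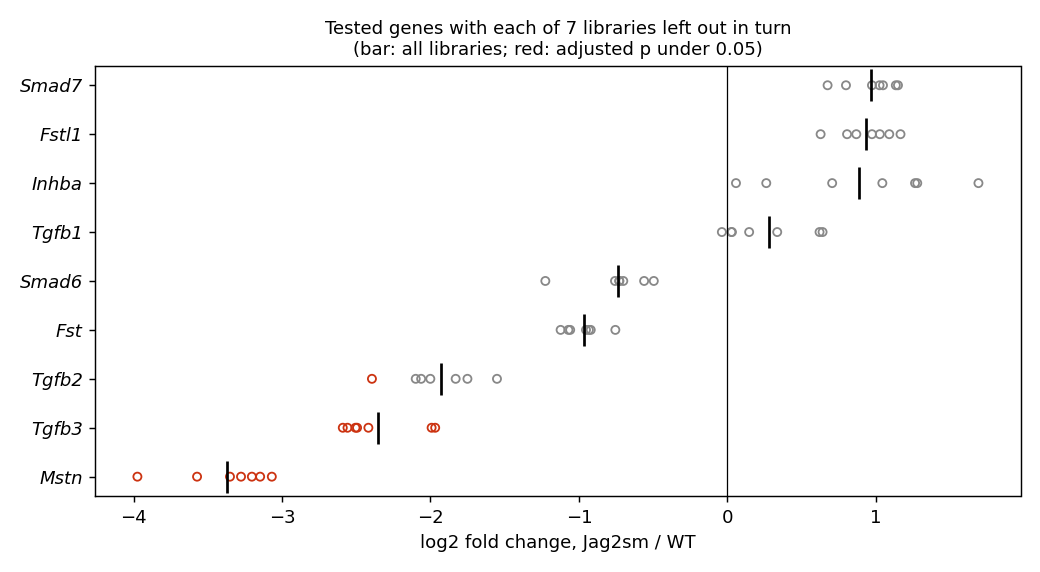
Fitted log2 fold change (Jag2sm over WT, x axis) of the 9 genes tested, with the black bar for all 7 libraries and 1 circle for each library left out, in red where the edgeR adjusted p was under 0.05. *Mstn* stays between -3.97 and -3.07 and *Tgfb3* between -2.59 and -1.97, all in red, whereas *Tgfb2* is red in 1 of its 7 circles and *Tgfb1* crosses 0.

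The rest of the pathway was described from 7 lists with 113 symbols in all, of which 112 were found in the files and 58 were tested. By the same edgeR test 4 were lower and 2 were higher in *Jag2sm*, beside 4.84% lower and 1.42% higher over all genes tested. The median log2 fold change of the genes tested was 0.06, beside 0.05 over all genes. The 4 that were lower were *Inha*, *Gdf11*, *Hjv* and *Itgb6*, and the 2 that were higher were *Lefty1* and *Grem1*. *Lefty1* and *Grem1* were under the filter's 8.17 CPM in every WT library, so both passed through their *Jag2sm* libraries. *Inha*, *Hjv* and *Itgb6* reached it in every WT library but not in every *Jag2sm* library. These counts are therefore a description of the genes and no support for a shift.

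Among 25 other ligands, 6 were tested, 2 were lower and 1 was higher, and 8 had 0 counts in every library. *Inha*, the inhibin α subunit, which pairs with activin β subunits to form inhibins, was at 110, 62.7 and 74.9 CPM in WT and at 7.07, 12.4, 2.96 and 8.15 CPM in *Jag2sm* replicates 1 to 4. Its fitted level was 10.3-fold lower, with a log2 fold change of -3.36 ± 0.40 (SE) and an edgeR adjusted p of 0.00254. *Gdf11*, the closest relative of myostatin, was at 80.7, 40.7 and 40.8 CPM in WT and at 22.6, 20.7, 15.8 and 22.0 CPM in *Jag2sm*. The fitted log2 fold change was -1.26 ± 0.29 (SE), with an edgeR adjusted p of 0.0298. That call was lost without WT replicate 2 (0.0620) or 3 (0.0594) and without *Jag2sm* replicate 1 (0.0528), 2 (0.0875), 3 (0.0602) or 4 (0.0524). *Lefty1*, an inhibitor of Nodal signaling, had 5 reads in WT and 53 in *Jag2sm*, with 0, 2.59 and 0.948 CPM in WT and 17.0, 11.1, 5.42 and 11.4 CPM in *Jag2sm*. Its log2 fold change was 2.51 ± 0.66 (SE), with an edgeR adjusted p of 0.0486, which became 0.0896 with batch as a block and 0.0794, 0.102 and 0.221 without WT replicates 1, 2 and 3. Without WT replicate 2 the log2 fold change was 3.56. The call was also lost with DESeq2 (adjusted p 0.0622) and limma-voom (0.141).

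Among receptors and co-receptors, 17 of 18 symbols were found and 10 were tested, of which 1 was lower and 0 higher. That gene was *Hjv*, hemojuvelin, a BMP co-receptor known for its part in iron regulation and expressed in muscle. It was at 167, 84.0 and 76.8 CPM in WT and at 7.07, 5.53, 2.96 and 19.6 CPM in *Jag2sm*, and like *Mstn* it was highest among *Jag2sm* libraries in replicate 4. The log2 fold change was -3.56 ± 0.52 (SE), with an edgeR adjusted p of 0.00524, and -4.37 without *Jag2sm* replicate 4. Of the 5 SMAD transducers tested of 6, 0 were called. *Smad5* had a mean of 111 ± 12.0 CPM in 3 WT libraries and of 99.6 ± 3.91 CPM in 4 *Jag2sm* libraries (± SD), and *Smad4* at 63.5 ± 20.5 and 66.3 ± 6.75 CPM. Their log2 fold changes were -0.16 ± 0.18 and 0.19 ± 0.23 (SE).

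Of 19 other antagonists, 5 were tested and 1 was higher. *Grem1*, gremlin 1, a secreted BMP antagonist, was at 5.76, 1.94 and 5.69 CPM in WT and at 73.5, 29.7, 92.1 and 9.78 CPM in *Jag2sm* replicates 1 to 4, from 10 reads in WT and 294 in *Jag2sm*. The fitted log2 fold change was 3.75 ± 0.88 (SE), with an edgeR adjusted p of 0.0298 and an exact permutation p of 0.0571. The call was lost without WT replicate 1 (0.0654), 2 (0.163) or 3 (0.0993) and without *Jag2sm* replicate 1 (0.0641) or 2 (0.0507), and the log2 fold change ran from 3.16 without WT replicate 2 to 4.34 without WT replicate 3. It was also lost with limma-voom (0.179) and the robust edgeR fit (0.0571). Of 19 genes of latency and processing, 10 were tested and 1 was lower. *Itgb6*, the integrin subunit that with αV releases TGF-β from its latent complex, was at 80.7, 67.2 and 61.6 CPM in WT and at 24.0, 5.53, 6.41 and 21.2 CPM in *Jag2sm*. The fitted log2 fold change was -2.37 ± 0.45 (SE), with an edgeR adjusted p of 0.0131, and 0.0532 without WT replicate 2.

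None of the 10 intracellular inhibitors tested of 11, and none of the 14 response genes tested of 19, passed the edgeR threshold. *Fkbp1a*, a protein that binds type I receptors, had a mean of 423 ± 6.56 CPM in the WT libraries and of 421 ± 66.7 CPM in the *Jag2sm* libraries (± SD), and *Tgif1*, a repressor of SMAD targets, at 143 ± 19.5 and 153 ± 18.1 CPM. Of the response genes, *Acta2*, smooth muscle actin, was at 1583 ± 523 and 1330 ± 676 CPM, with a log2 fold change of -0.26 ± 0.40 (SE). *Id3*, a target of BMP signaling, was at 455, 878 and 821 CPM in WT and at 1243, 943, 951 and 1096 CPM in *Jag2sm*. Its levels did not overlap, and its log2 fold change of 0.55 ± 0.28 (SE) had an edgeR adjusted p of 0.314.

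**Figure D4:**
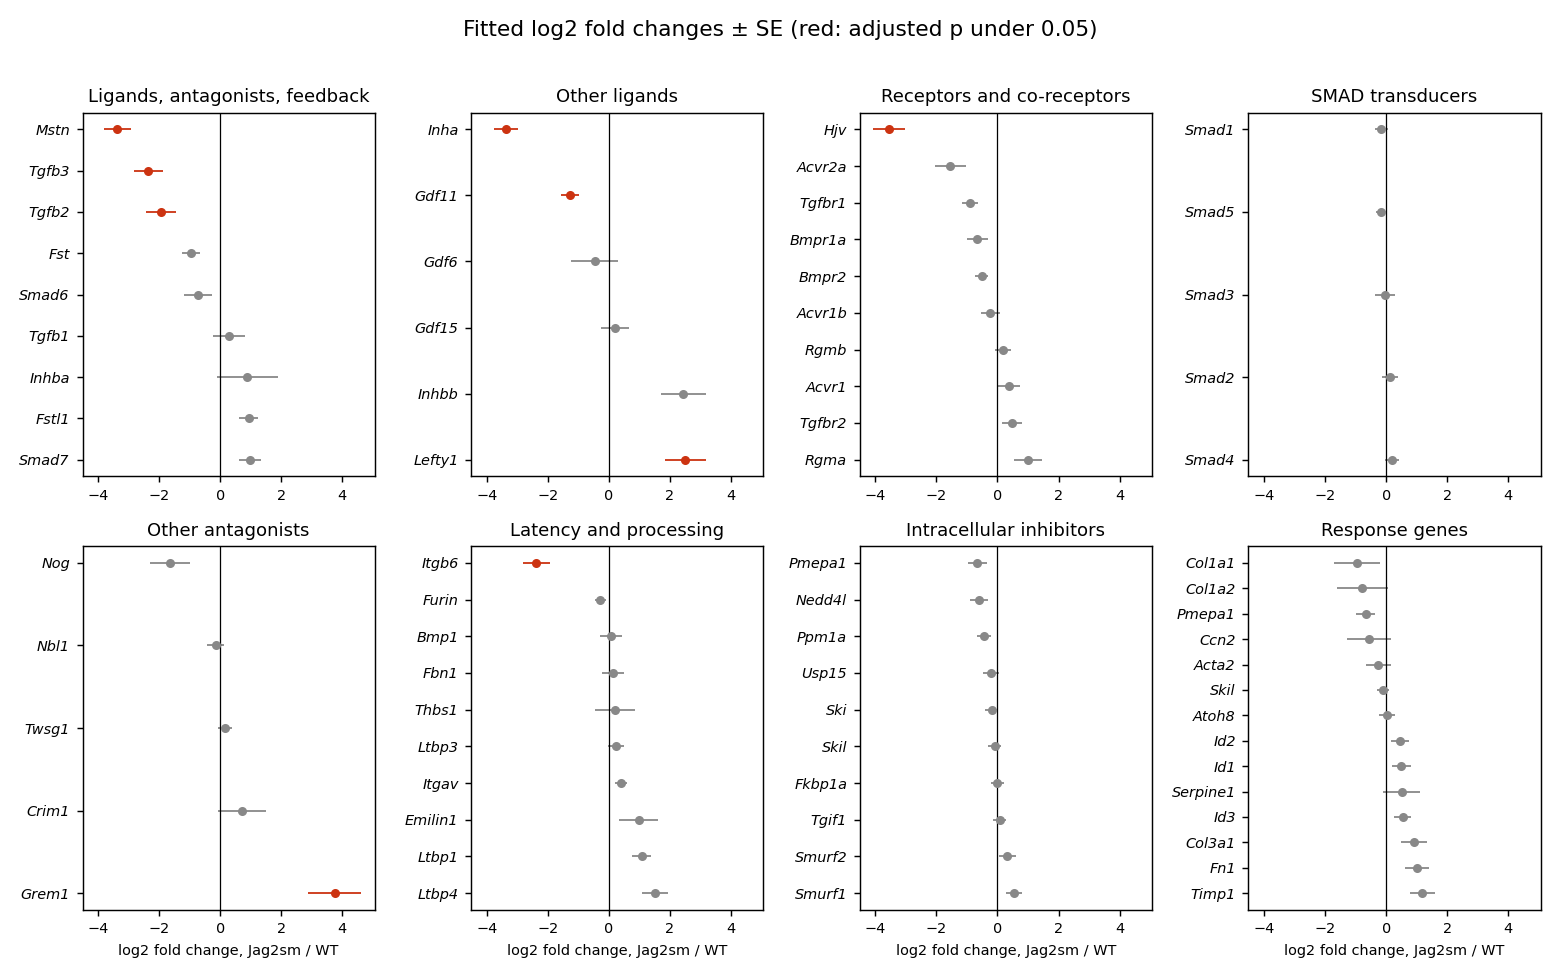
Fitted log2 fold change (Jag2sm over WT, x axis) with SE for the 9 genes tested and for the tested genes of the 7 pathway lists, in red where the edgeR adjusted p was under 0.05. Red points are *Mstn*, *Tgfb3* and *Tgfb2*, and in the lists *Inha*, *Gdf11*, *Lefty1*, *Hjv*, *Grem1* and *Itgb6*.

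**Figure D5:**
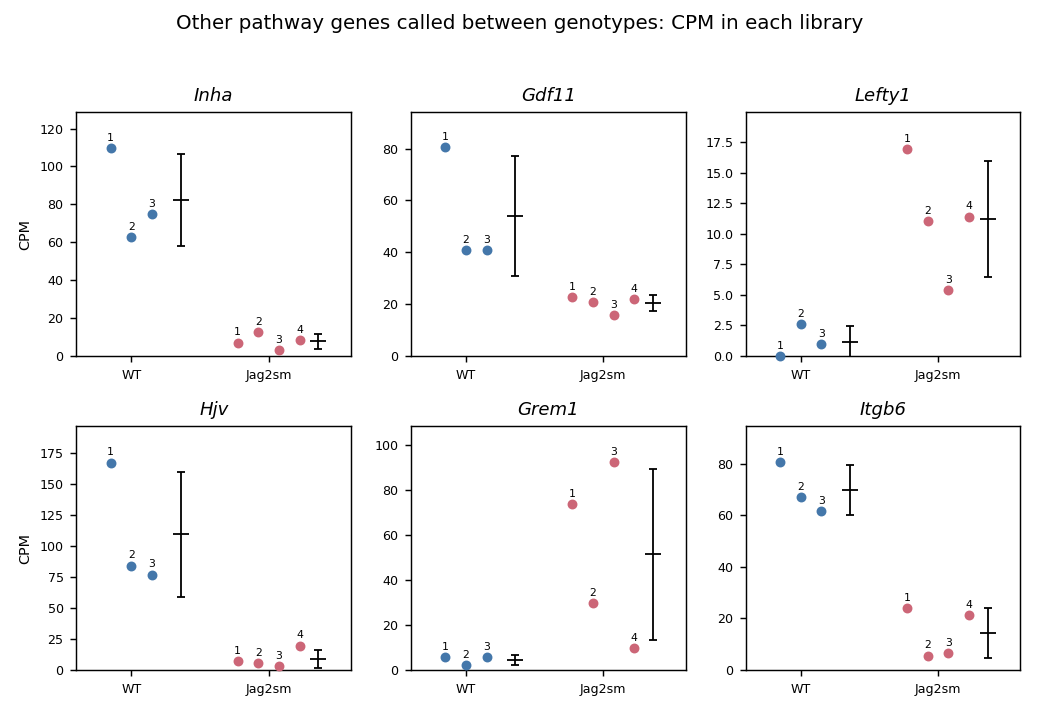
CPM of the 6 pathway genes called, in each library, on linear axes from 0, with mean and SD beside the points (the lower bar of *Lefty1* in WT is cut at 0). *Inha*, *Gdf11*, *Hjv* and *Itgb6* are lower in all 4 Jag2sm libraries and *Lefty1* and *Grem1* higher, with *Grem1* spread from 9.78 to 92.1 CPM in Jag2sm.

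For the 3 ligand genes that were lower, the genes with the nearest pattern over the 7 libraries were found by the mean absolute difference of log2 CPM centred on each gene's mean. *Mstn* was nearest to *5430431A17Rik* (0.319), *Igfbp4* (0.368), an IGF-binding protein, and *Pgam2* (0.395), the muscle phosphoglycerate mutase. Among the nearest to *Tgfb3* were *Ccdc162* (0.162) and *Mafa* (0.165). *Tgfb2* was nearest to *Lzts1* (0.234), *Ache* (0.245), acetylcholinesterase, and *Dusp13b* (0.250).

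Markers of differentiated muscle were also lower in *Jag2sm*. All 15 tested of 16 such markers, among them *Myog*, *Myh3* and *Acta1*, had negative log2 fold changes (-3.88 to -1.63). Of these, 14 were called lower at an edgeR adjusted p under 0.05, beside 4.84% over all genes tested. The summed level of the 16 markers was 33839 to 57540 CPM in WT and 1977 to 9551 CPM in *Jag2sm*. Among *Jag2sm* libraries this sum was lowest in replicate 3 and highest in replicate 4, where *Mstn*, *Tgfb2* and *Hjv* were also highest. *Tgfb3* and *Itgb6* were highest in replicate 1 and *Inha* in replicate 2. *Mstn* and *Tgfb2* were lowest in replicate 1, although its marker sum of 7125 CPM was above those of *Jag2sm* replicates 2 and 3. Among WT libraries the sum was highest in replicate 1, where *Tgfb3* and *Tgfb2* were also highest but *Mstn* was lowest (34.6 CPM, from 6 reads). The summed level of 13 myoblast and satellite cell markers was 3479 to 4467 CPM in WT and 2723 to 3078 CPM in *Jag2sm*, and 0 of the 10 tested were called. *Chrna1* gave the most of this sum, with means of 2252 CPM in WT and 1208 CPM in *Jag2sm*. Means were also lower in *Jag2sm* for *Myod1* (778 and 685 CPM), *Megf10* (220 and 172), *Cdh15* (162 and 108), *Itga7* (82.8 and 42.9), *Heyl* (10.2 and 3.23) and *Calcr* (0.316 and 0). *Pax7* was at 28.8 to 95.7 CPM in WT and 100 to 172 CPM in *Jag2sm*, and *Vcam1* had means of 30.6 and 75.7 CPM. *Sdc4* (281 and 354), *Cxcr4* (23.7 and 38.8) and *Myf5* (37.3 and 68.1) had higher means in *Jag2sm* too. Of other cell types, 10 fibro-adipogenic markers summed to 51.9 to 97.6 CPM in WT and 88.7 to 192 CPM in *Jag2sm*, 8 endothelial markers to 4.74 to 11.5 and 7.88 to 17.0 CPM, 8 immune markers to 0 to 5.69 and 0.985 to 4.89 CPM, and 5 glial markers to 3.23 to 8.54 and 2.45 to 9.90 CPM. The 7 mural markers summed to 81.6 to 98.0 CPM in WT and 71.0 to 694 CPM in *Jag2sm*, where *Rgs5* alone gave 645 CPM in *Jag2sm* replicate 1, the library with the highest *Fstl1* and *Smad7*. Of the other mural markers, *Abcc9* was lower in *Jag2sm* (log2 fold change -3.71, edgeR adjusted p 0.0139). *Mcam* had a log2 fold change of -1.16 that was not called. *Notch3* went the other way, with means of 19.7 CPM in WT and 40.9 CPM in *Jag2sm*, and its log2 fold change of 0.66 was not called. Not tested were *Cspg4*, with means of 15.9 CPM in WT and 3.45 CPM in *Jag2sm*, *Pdgfrb* (3.00 and 0.961 CPM) and *Kcnj8* (0 and 0.246 CPM). The 5 tenocyte markers summed to 115 to 128 CPM in WT and 30.1 to 76.6 CPM in *Jag2sm*, nearly all from *Scx*. The part of these markers, and of the share of unaligned reads, in the levels of the 10 genes was not tested. A fit chosen after the data were seen kept *Jag2sm* replicate 3, whose unaligned share was like that of WT, as the only mutant library and assumed that it varies like the WT libraries. There *Mstn*, *Tgfb3* and *Tgfb2* had log2 fold changes of -3.99, -3.84 and -3.17. No spread among *Jag2sm* libraries enters that fit, and it is no test of the unaligned share. *Jag2sm* replicate 3 also had the lowest differentiated muscle sum. In bulk RNA, fewer cells of a type and less RNA per cell cannot be told apart.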

How the data were processed

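RNA of MuSCs was measured in 3 WT and 4 *Jag2sm* libraries. The authors called bases with dorado, used minimap2 2.17 for alignment to GRCm39 and HTSeq for gene counts, whose version, strand setting and annotation are not given in the sources used here. The deposited values are raw counts per gene, 1 file per library. The authors' table of their own comparison (mean normalized value, log2 fold change, error, statistic and p-values from DESeq2) was not used. The 5 summary rows of each file, 45.0% to 75.2% of all reads, stayed out of library sizes and tests. Of 56748 identifiers, 56017 were found in GENCODE M39, which gave locations and starts.

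Counts were fitted in R 4.3.3 with edgeR 4.0.16 (TMM, filterByExpr with minimum count 10 and total 15, glmQLFit, glmQLFTest, no covariate, Benjamini-Hochberg over 9489 genes, adjusted p under 0.05). The SE is the size of the log2 fold change divided by the square root of F, and log2 CPM used a prior count of 2. Permutation tests were two-sided and exact over 35 divisions of the libraries (smallest p 0.0286). Overlaps used bedtools 2.31.1. Intervals cover counting error only.

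Each library carries a batch number equal to its replicate number, and the sources used here do not say what it stands for. Batches 1 to 3 thus pair the genotypes by number, and batch 4 holds 1 *Jag2sm* library. The study's methods describe the barcoded samples as pooled and loaded on the same flow cells. The pairs may therefore share nothing but a number. Deviations from genotype means correlated within batches 1 to 3 at 0.0740, 0.0144 and 0.0539 across genes, which are not independent replicates. Alternatives were DESeq2 1.42.0, limma-voom (limma 3.58.1), other scalings, filters and fits, the batch block, and each library left out.

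The 10 genes and all lists were chosen with earlier results of these data known. Named genes were those 10, *Jag2*, up to 4 called genes per list (or the 2 of highest mean CPM where none was called), the 3 nearest profiles of each called gene, of which 1 is not reported here, and annotated neighbours. Other genes were named after their values were seen.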

Additional observations from a re-analysis of the deposited data

Results flagged for a closer look

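*Mstn* in *Jag2sm* MuSCs had 1 library far from the others: replicate 4 stood at 14.7 CPM, against 4.24 to 4.84 CPM in replicates 1 to 3. The gap to the nearest other library was 0.943 of the whole range of the group. Of 17 groups of 4 libraries examined in this way, 1 passed the critical value, and chance alone passes about 1 in 20. *Mstn* was lower in *Jag2sm* with and without this library, with log2 fold changes of -3.37 and -3.97 and edgeR adjusted p-values of 0.00311 and 0.00161.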

How the results depend on the processing

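*Mstn* kept its direction and its call under all 15 alternatives in which it was tested (log2 fold change -3.99 to -3.07), and *Tgfb3* under all 16 (-3.84 to -1.97). *Tgfb2* kept its direction under 15 and its call under 8. It was lost with library size alone (-1.78), and over the libraries left out its log2 fold change ran from -2.39 to -1.55. *Fstl1* was called in 1 alternative, with no filter on low counts (0.95, adjusted p 0.0214). *Tgfb1*, never called, reversed with the replicate block (-0.16), without WT replicate 3 (-0.037; range over libraries left out -0.037 to 0.64) and with *Jag2sm* replicate 3 as the only mutant library (-0.96). The cause of these changes was not tested. *Fst*, *Smad6*, *Smad7*, *Inhba* and *Jag2* kept direction and stayed uncalled throughout. The median of the genes moved from -0.73 to -1.50 with at least 10 counts in every library, which left 2 of the 10 genes tested and 1 called, to -0.26 with no filter, which also tests *Bmp4*, and to -1.42 with *Jag2sm* replicate 3 alone. Over libraries left out, 2 or 3 of the genes were called, with medians of -1.06 to -0.50.

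Genes called over all tested numbered 594 and changed to 1248 with no filter (780 lower, 468 higher), 274 with at least 10 counts in every library (231 and 43) and 221 with *Jag2sm* replicate 3 alone (184 and 37). Over libraries left out they ranged from 251 (without *Jag2sm* replicate 2) to 616, with 221 to 466 lower and 20 (without WT replicate 3) to 220 higher. Calls as higher numbered 135, against 206 with DESeq2 and 241 with library size alone, which moved the median log2 fold change of all genes from 0.05 to 0.21 and the split from 459 lower and 135 higher to 384 and 241. Of the pathway lists, 6 genes were called, against 11 with DESeq2, 17 with no filter, 2 with at least 10 counts in every library and 3 to 6 over libraries left out. With the replicate block 565 genes were called in all and 5 of the pathway lists, *Lefty1* being lost, and no other call among the 10 genes or the lists changed. At a depth of 187834 reads, 3 counts in WT replicate 1 make 17.3 CPM, which limits what that library shows of genes at a few CPM.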
